A study of Mus musculus with 4 samples.

Results

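Podocytes that carried a hairpin against Jaml in high glucose (sh-JAML/HG) were set against podocytes that carried a control hairpin in high glucose (sh-NC/HG), gene by gene, from 1 RNA-seq library each. A further 2 libraries held the same hairpins without high glucose (sh-JAML and sh-NC), so 4 libraries were analysed. All were made from MPC, a conditionally immortalised mouse podocyte line. Per the labels, every culture was expanded at 33 °C in 10% serum with 20 U/ml interferon-gamma and then left to differentiate at 37 °C with the interferon withdrawn, for 7 days. The high-glucose cultures had D-glucose at 40 mmol/L, for 24 h per the design text, and the labels give neither an osmotic control nor the glucose level of the other cultures. How many hairpin sequences stand behind each name is not given, so an effect through the target and another effect of the hairpin cannot be told apart. With 1 library per group there is no spread between replicates and no test: each ratio describes 2 libraries.

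Of 56393 genes in the deposited table, 14187 averaged 50 counts or more across the 4 libraries and were compared. A gene that was low elsewhere could pass through a single high library of the pair, and its direction then follows from the filter. Just inside that minimum stood Fank1 and Il4 with a mean of 50, at log2 ratios of 1.30 and 0.39, and just outside it 4430402I18Rik (mean 49.75) and Iqca (mean 49.5), at 0.61 and -2.13. Levels are counts per 1000000 (CPM) after edgeR's TMM scaling, which sets libraries to a common scale but does not correct for gene length. A log2 ratio is sh-JAML/HG over sh-NC/HG unless another pair is named, with a prior count of 1, and a fold is followed in brackets by its exact 95% interval, which covers counting error only. Gene positions are from GENCODE M21 on mm10.

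JAML is a transmembrane adhesion protein of the immunoglobulin superfamily, best known from leukocytes, where it binds the coxsackie and adenovirus receptor on epithelia. The title of the series ties it to lipid metabolism in podocytes, the epithelial cells that wrap glomerular capillaries and hold the slit diaphragm of the kidney filter. Interferons act through transcription factors that include STAT2 and IRF9 on a response element in the promoters of their target genes, and NF-kB acts on a second element in the promoters of chemokines and acute-phase genes. Both element types are shown here because the lowest list medians of this comparison were those of acute-phase and interferon-stimulated genes. The metal response element is shown for the metallothioneins, which had the highest median of the small groups.

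The promoter windows, from RefSeq on GRCm38.p6, reach from 250 bases before to 50 bases after a gene's annotated start. Capitals mark the interferon-stimulated response element (GAAA, any 2 bases and GAAA, on either strand) in the first 3 windows. Capitals in Cxcl10 mark that element and the NF-kB consensus, those in Cxcl1 the NF-kB consensus, and those in Mt1 the metal response element core (TGCACNC or TGCGCNC, either strand). The windows lie at chr4:156200769-156201068 (minus strand), chr12:26456403-26456702 (minus), chr19:34640639-34640938 (plus), chr5:92348840-92349139 (minus), chr5:90890995-90891294 (plus) and chr8:94178839-94179138 (plus).
Isg15: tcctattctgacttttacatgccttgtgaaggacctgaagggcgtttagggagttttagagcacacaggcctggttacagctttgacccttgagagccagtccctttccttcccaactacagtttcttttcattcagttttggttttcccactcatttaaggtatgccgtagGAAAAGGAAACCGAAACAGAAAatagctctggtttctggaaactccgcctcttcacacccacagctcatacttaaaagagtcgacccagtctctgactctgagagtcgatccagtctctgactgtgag
Rsad2: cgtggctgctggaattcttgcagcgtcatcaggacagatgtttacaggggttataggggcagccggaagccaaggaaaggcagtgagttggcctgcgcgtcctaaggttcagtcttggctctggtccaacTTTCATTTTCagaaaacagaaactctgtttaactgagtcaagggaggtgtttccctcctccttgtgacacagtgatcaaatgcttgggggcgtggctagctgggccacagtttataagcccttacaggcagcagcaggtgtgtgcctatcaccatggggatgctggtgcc
Ifit1: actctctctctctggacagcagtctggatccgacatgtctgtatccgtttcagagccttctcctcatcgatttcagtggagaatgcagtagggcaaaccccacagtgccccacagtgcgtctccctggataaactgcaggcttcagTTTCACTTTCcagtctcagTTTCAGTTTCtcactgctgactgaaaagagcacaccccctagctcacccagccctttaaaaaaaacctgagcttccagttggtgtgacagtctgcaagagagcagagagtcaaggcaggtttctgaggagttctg
Cxcl10: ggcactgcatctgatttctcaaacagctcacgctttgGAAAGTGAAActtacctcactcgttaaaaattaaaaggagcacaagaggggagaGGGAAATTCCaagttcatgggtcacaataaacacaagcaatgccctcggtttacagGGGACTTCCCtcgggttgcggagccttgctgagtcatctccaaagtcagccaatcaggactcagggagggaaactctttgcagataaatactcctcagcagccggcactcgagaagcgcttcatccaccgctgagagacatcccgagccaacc
Cxcl1: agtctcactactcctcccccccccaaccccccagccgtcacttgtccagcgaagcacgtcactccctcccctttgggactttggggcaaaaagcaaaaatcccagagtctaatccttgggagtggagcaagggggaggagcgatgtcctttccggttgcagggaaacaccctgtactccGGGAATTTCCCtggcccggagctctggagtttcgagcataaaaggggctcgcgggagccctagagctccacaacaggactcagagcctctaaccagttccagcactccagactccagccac
Mt1: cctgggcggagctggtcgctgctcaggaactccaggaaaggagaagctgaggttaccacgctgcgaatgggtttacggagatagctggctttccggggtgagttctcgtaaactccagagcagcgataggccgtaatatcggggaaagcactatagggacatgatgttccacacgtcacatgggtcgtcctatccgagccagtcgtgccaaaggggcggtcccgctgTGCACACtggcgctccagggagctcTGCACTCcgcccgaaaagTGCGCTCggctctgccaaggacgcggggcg

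The interferon element was present in 1131 of 32851 windows over all genes (3.44%) and in 17 of the 33 windows found for 28 of the 40 measured interferon-stimulated genes (51.5%). The NF-kB consensus was in 1480 windows over all genes (4.51%) and in 10 of the 22 windows of the measured NF-kB list (45.5%). In the acute-phase list each of these elements was in 2 of the 10 windows found for 9 genes (20%). The interferon and NF-kB lists were named for their regulators, so a high share there is no separate support. The metal response core was common, in 8444 windows (25.7%). Isg15 held 3 overlapping copies of the interferon element, Ifit1 held 2 and Rsad2 held 1. Cxcl10 held 1 interferon element and 2 NF-kB matches, Cxcl1 held 2 overlapping NF-kB matches, and Mt1 held 3 metal response cores. A match is a description of the letters and says nothing of binding.

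Jaml itself was at 0 in all 4 libraries, below a floor of 3 fragments that corresponds to 0.142 CPM for sh-JAML/HG, 0.129 for sh-NC/HG, 0.150 for sh-JAML and 0.151 for sh-NC. The table therefore gives no check of the hairpin at the RNA level, and a lowering of Jaml was not detectable at this depth. Of its partners and relatives, Cxadr, the coxsackie and adenovirus receptor, had 381 CPM in sh-JAML/HG and 522 CPM in sh-NC/HG, beside 374 CPM for sh-JAML and 419 for sh-NC. The junction protein F11r (JAM-A) had 124 CPM in sh-JAML/HG and 182 CPM in sh-NC/HG. Jam3 went the other way, with 21.7 CPM in sh-JAML/HG and 14.6 CPM in sh-NC/HG. Over the 25 junction genes measured 14 lay below 0 and 11 above it, with a median log2 ratio of -0.08 (-0.13 without high glucose), and 1 was past 2-fold on each side.

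Library totals were 83551812 counts for sh-JAML/HG, 94341975 for sh-NC/HG, 79330461 for sh-JAML and 80599238 for sh-NC. Podocyte markers were mixed: Nes, Actn4, Cd2ap and Synpo were well counted, while Nphs1 had 17 counts in sh-JAML/HG and 18 in sh-NC/HG, and Tcf21 was at 0 in all 4 libraries. The summed level of the 15 podocyte markers was 1563 CPM for sh-JAML/HG, 2021 for sh-NC/HG, 1594 for sh-JAML and 1785 for sh-NC. Of the 12 tubule markers 4 passed the count minimum, led by Cdh16 and Lrp2, with a sum of 851 CPM in sh-JAML/HG and 1333 in sh-NC/HG. The 8 endothelial markers summed to 2.74 CPM in sh-JAML/HG and 7.21 in sh-NC/HG, with Kdr and Tie1 at 0 in all 4 libraries. The 8 mesangial and fibroblast markers summed to 871 CPM in sh-JAML/HG and 821 in sh-NC/HG, with Itga8 and Ren1 at 0. The 6 erythroid markers separated the glucose conditions, with 0.745 CPM in sh-JAML/HG and 0.654 in sh-NC/HG, beside 42.0 in sh-JAML and 37.6 in sh-NC.

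In sh-JAML/HG 399 genes (2.81% of 14187) stood 2-fold or more above sh-NC/HG, and 678 (4.78%) stood 2-fold or more below it. Without high glucose 186 genes (1.31%) were that far up in sh-JAML over sh-NC and 198 (1.4%) that far down. The quartiles of all log2 ratios were -0.23 and 0.24 under high glucose and -0.11 and 0.12 without it. Above 0 lay 50.3% and below 0 49.7% of the genes in either pair, and the median ratio was near 0. Protein-coding genes made up 289 of the 399 and 553 of the 678, beside 12060 of all 14187. Genes of the lists used here made up 44 of the 399 and 90 of the 678, beside 890 of all 14187. No count in one library of the pair was found for 11 of the 399 (sh-NC/HG at 0) and 14 of the 678 (sh-JAML/HG at 0). For 7 of all 14187 both libraries of the pair were at or under the floor, so that no fold is given. By their log2 ratio 1 of these 7 is still counted among the 399 and 1 among the 678. The share past 2-fold depended on level: 8.36% higher and 14.7% lower among 2214 genes averaging under 200 counts, and 1.0% higher and 1.59% lower among 4578 genes averaging 5000 or more.

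For most of these genes sh-NC/HG lay outside the range of the other 3 libraries. It held the highest of the 4 levels for 629 of the 678 lower genes and the lowest for 375 of the 399 higher genes. The level in sh-JAML/HG was within 1.5-fold of the mean of the sh-JAML and sh-NC levels for 443 of the 678 and 307 of the 399, where sh-NC/HG was that close for 95 and 36. Since the ratio chose these genes, 1 library of its pair had to be high or low. A culture effect, a library effect and an effect of the hairpin in high glucose cannot be told apart with 1 library per group, and no value without sh-NC/HG can be had.

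**Figure D1:**
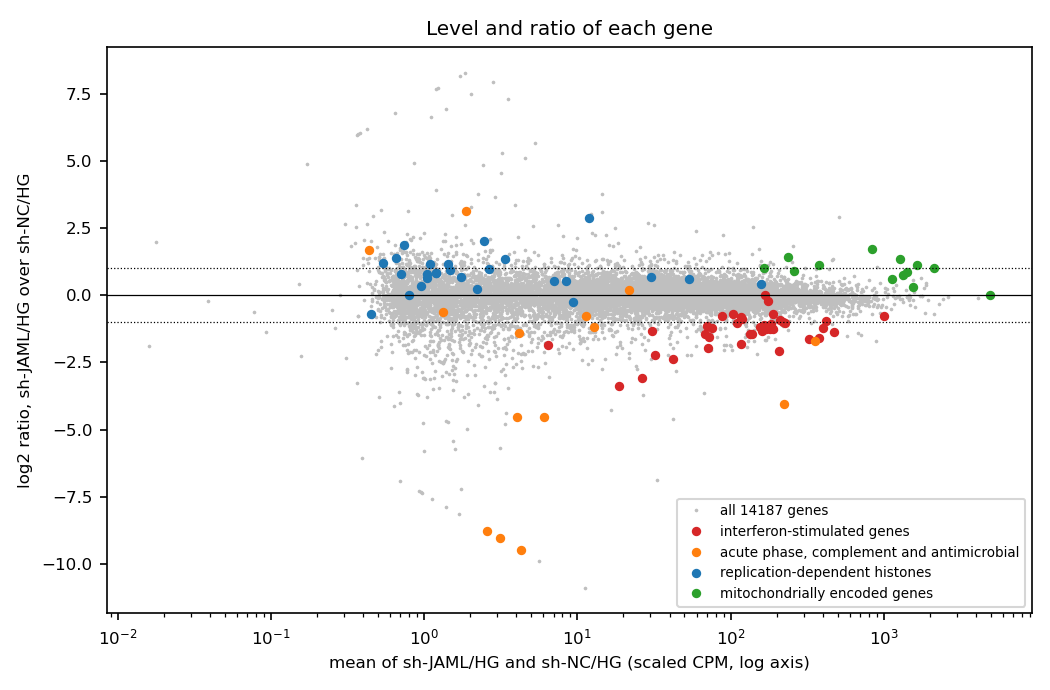
Log2 ratio of sh-JAML/HG over sh-NC/HG (vertical axis) against the mean CPM of both libraries (horizontal log axis) for 14187 genes in grey, with dotted lines at 2-fold. The interferon-stimulated genes lie below 0 in 39 of 40 cases, the 13 mitochondrially encoded genes lie above 0, and the spread of all genes widens at low levels.

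Interferon-stimulated genes were lower in sh-JAML/HG almost without exception. Of 40 measured genes on that list 39 lay below 0 and 29 were lower by 2-fold or more, with a median log2 ratio of -1.23 beside 0.00 over all genes. Without high glucose the same 40 genes had a median of -0.04 and none was 2-fold apart. The sh-NC/HG library was the highest of the 4 for 39 of them, and sh-JAML/HG was the lowest of the 4 for 36. In bulk RNA fewer responding cells and less RNA per cell cannot be told apart.

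The ubiquitin-like modifier Isg15 had 159.6 CPM in sh-JAML/HG and 494 CPM in sh-NC/HG, beside 184 CPM for sh-JAML and 191 for sh-NC, which makes it 3.10-fold lower (2.98 to 3.22) with the Jaml hairpin. The antiviral radical SAM enzyme Rsad2 (viperin) had 79.9 CPM in sh-JAML/HG and 334 CPM in sh-NC/HG, beside 100.0 CPM for sh-JAML and 103 for sh-NC, a ratio 4.18-fold lower (3.97 to 4.41). For both, sh-NC/HG stood alone at the high end and sh-JAML/HG was below the pair without high glucose. Ifit1, a binder of viral RNA, had 241 CPM in sh-JAML/HG and 562 CPM in sh-NC/HG, beside 303 CPM for sh-JAML and 309.7 for sh-NC. The dynamin-like antiviral GTPase Mx1 differed most of the list. Mx1 (chr16:97447035-97462907 (-)) had 3.30 CPM in sh-JAML/HG and 34.2 CPM in sh-NC/HG, or 10.4-fold lower (8.09 to 13.4), beside 5.73 CPM for sh-JAML and 5.51 for sh-NC. Next came Oas2, a synthetase of the oligoadenylate that activates RNase L, with 5.53 CPM in sh-JAML/HG and 47.2 CPM in sh-NC/HG, beside 8.17 CPM for sh-JAML and 9.04 for sh-NC. Mx2 followed with 13.7 CPM in sh-JAML/HG and 70.2 CPM in sh-NC/HG.

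Regulators of the response were lower too. Stat2 had 72.9 CPM in sh-JAML/HG and 197 CPM in sh-NC/HG. Irf7, which amplifies the response, had 101 CPM in sh-JAML/HG and 241 CPM in sh-NC/HG, beside 116 CPM for sh-JAML and 101 for sh-NC. Irf9 had 79.9 CPM in sh-JAML/HG and 128 CPM in sh-NC/HG. The 5 sensors of viral nucleic acid (Ddx58, Ifih1, Dhx58, Zbp1 and Eif2ak2) were all lower, with a median of -0.99 and Zbp1 lowest at -1.96. All 7 OAS genes and all 5 IFIT genes were lower, 6 and 4 of them at least 2-fold. Ifi27 was the member not below 0, with 167 CPM in sh-JAML/HG and 167 CPM in sh-NC/HG. Outside the list, Rnf213, a large ubiquitin ligase, had the second largest CPM difference downward of all genes, with 425 CPM in sh-JAML/HG and 1366 CPM in sh-NC/HG. Ifitm3, which blocks viral entry, had 376 CPM in sh-JAML/HG and 992 CPM in sh-NC/HG, beside 420.4 CPM for sh-JAML and 473 for sh-NC. Bst2 (tetherin), which holds back budding virus, had 744 CPM in sh-JAML/HG and 1257 CPM in sh-NC/HG.

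**Figure D2:**
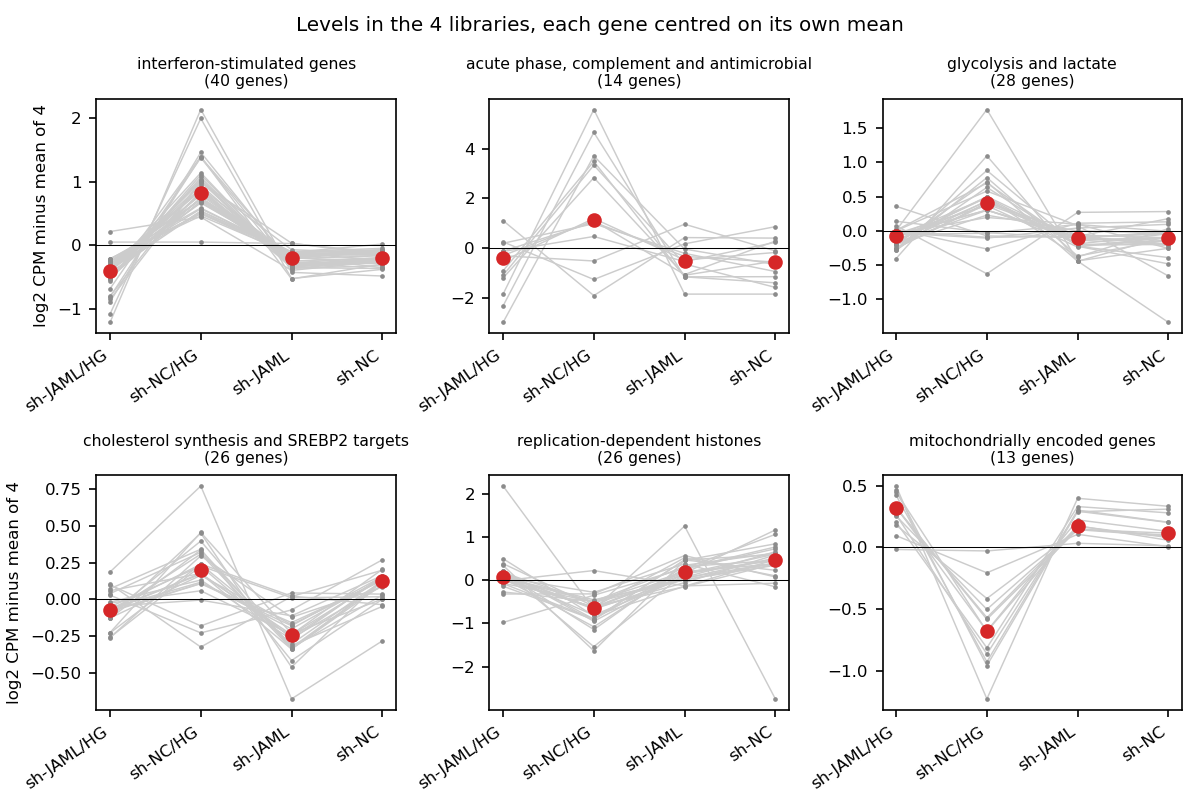
Log2 CPM in each of the 4 libraries after subtracting the gene's own mean, for 6 gene lists; grey lines join the values of 1 gene and red points are medians, and 0.05 was added to each CPM before the logarithm. In the interferon, complement and glycolysis panels sh-NC/HG is the high library, in the histone and mitochondrially encoded panels it is the low one, and in the cholesterol panel the order is sh-NC/HG, sh-NC, sh-JAML/HG and sh-JAML.

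The interferon-gamma and class I list split by function. Over its 31 measured genes the median log2 ratio was -0.77, with 29 below 0 and 9 lower by 2-fold or more, and without high glucose it was -0.06. The guanylate-binding proteins and immunity-related GTPases, which attack the vacuoles of intracellular pathogens, were lower in 13 of 13 and at least 2-fold lower in 7. Tgtp2 had 66.8 CPM in sh-JAML/HG and 219.6 CPM in sh-NC/HG, beside 77.4 CPM for sh-JAML and 102 for sh-NC. Igtp had 91.1 CPM in sh-JAML/HG and 222 CPM in sh-NC/HG, and Gbp4 had 68.3 CPM in sh-JAML/HG and 140.0 CPM in sh-NC/HG. The 12 genes of class I antigen presentation had a median of -0.07 and none was 2-fold apart. B2m, the light chain of class I, had 1774 CPM in sh-JAML/HG and 1799 CPM in sh-NC/HG, and H2-K1, a heavy chain, had 1381 CPM in sh-JAML/HG and 1445 CPM in sh-NC/HG, so the class I molecule itself was close to even in RNA. Among the proteasome subunits made for presentation, Psmb8 had 127 CPM in sh-JAML/HG and 211 CPM in sh-NC/HG. Irf1, itself an interferon-induced activator, went the other way, with 82.0 CPM in sh-JAML/HG and 57.1 CPM in sh-NC/HG, beside 86.7 CPM for sh-JAML and 47.6 for sh-NC, so it was higher with the Jaml hairpin at either glucose level.

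Class II genes lay mostly on the other side. Of 10 measured genes 8 lay above 0, 4 of them by 2-fold or more, and none was 2-fold lower, with a median of 0.29 (-0.09 without high glucose). The 4 were Ciita, the master coactivator of class II transcription, and the chains H2-Aa, H2-Ab1 and H2-Eb1. Ciita (chr16:10480059-10528418 (+)) had 4.23 CPM in sh-JAML/HG and 0.300 CPM in sh-NC/HG, beside 4.34 CPM for sh-JAML and 4.66 for sh-NC, a ratio 14.1-fold higher (6.61 to 36.3). H2-Eb1 had 50.6 CPM in sh-JAML/HG and 7.71 CPM in sh-NC/HG, beside 42.4 CPM for sh-JAML and 44.9 for sh-NC, and was 6.56-fold higher (5.6 to 7.72). H2-Ab1 had 25.4 CPM in sh-JAML/HG and 5.35 CPM in sh-NC/HG, beside 22.3 CPM for sh-JAML and 32.2 for sh-NC. H2-Aa had 3.66 CPM in sh-JAML/HG and 0.364 CPM in sh-NC/HG, beside 2.75 CPM for sh-JAML and 3.02 for sh-NC. In each of the 4 genes sh-NC/HG was the low library. The other class II genes were nearer even: Rfx5, a DNA-binding partner of Ciita, had 50.4 CPM in sh-JAML/HG and 48.2 CPM in sh-NC/HG. H2-DMa, a peptide exchanger, had 10.4 CPM in sh-JAML/HG and 13.0 CPM in sh-NC/HG. Cd74, with a mean of 9238.5 counts, had 84.8 CPM in sh-JAML/HG and 94.5 CPM in sh-NC/HG, a log2 ratio of -0.16. H2-DMa and Cd74 were the 2 members below 0. Of 8 leukocyte markers Itgam and Cd3e were at or under the floor in all 4 libraries. The sum of the 8, most of it from Csf1r, was 59.4 CPM for sh-JAML/HG, 57.5 for sh-NC/HG, 61.6 for sh-JAML and 68.0 for sh-NC.

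Chemokines and cytokines driven by NF-kB were lower in sh-JAML/HG. The list of 28 measured genes had a median of -0.53, with 23 below 0 and 10 of these lower by 2-fold or more, and -0.12 without high glucose. Members that include Cxcl5 and Ccl20 reached the count minimum only through sh-NC/HG, so their direction follows from the filter. Cxcl1, a neutrophil chemokine, had 3.30 CPM in sh-JAML/HG and 81.5 CPM in sh-NC/HG, beside 7.95 CPM for sh-JAML and 7.72 for sh-NC, and was 24.7-fold lower (19.4 to 31.7). Its relative Cxcl5 had no count in sh-JAML/HG and 1053 counts (11.3 CPM) in sh-NC/HG, at least 79.5-fold lower against the floor of 12 counts, with 9 counts in sh-JAML and 20 in sh-NC. Ppbp, a further CXC chemokine, had 10.1 CPM in sh-JAML/HG and 125 CPM in sh-NC/HG, beside 19.1 CPM for sh-JAML and 17.0 for sh-NC. These neutrophil chemokines thus shared 1 high library. Ccl2, which draws monocytes, had 52.4 CPM in sh-JAML/HG and 188 CPM in sh-NC/HG, beside 69.1 CPM for sh-JAML and 105 for sh-NC. Cxcl10, which draws T cells, had 116 CPM in sh-JAML/HG and 283 CPM in sh-NC/HG, beside 159.7 CPM for sh-JAML and 206 for sh-NC. For both, sh-JAML was also below sh-NC, at log2 ratios of -0.61 and -0.37. Ccl20, which draws dendritic and T cells, had 0.426 CPM in sh-JAML/HG and 5.27 CPM in sh-NC/HG, beside 0.449 CPM for sh-JAML and 0.515 for sh-NC, and was 12.4-fold lower (6.32 to 27.7). Ccl7 had 0.993 CPM in sh-JAML/HG and 5.88 CPM in sh-NC/HG and Il33, an alarm cytokine, had 1.31 CPM in sh-JAML/HG and 7.23 CPM in sh-NC/HG. The adhesion molecule Vcam1 had 19.6 CPM in sh-JAML/HG and 59.6 CPM in sh-NC/HG. Csf1, the macrophage growth factor, had 493 CPM in sh-JAML/HG and 805 CPM in sh-NC/HG. The NF-kB subunits Nfkb1 (-0.06) and Nfkb2 (0.05) were near 0, while Nfkbiz (-1.30) and the inhibitor Nfkbia (-0.70) were lower. Cx3cl1 was near even under high glucose but differed without it, with 17.7 CPM in sh-JAML/HG and 20.7 CPM in sh-NC/HG, beside 99.5 CPM for sh-JAML and 19.8 for sh-NC. Some leukocyte markers with low counts moved with part of this group. Lyz2, the lysozyme of macrophages, had 5 counts in sh-JAML/HG and 282 in sh-NC/HG, beside 162 in sh-JAML and 170 in sh-NC. Adgre1, a macrophage receptor, had 0 counts in sh-JAML/HG and 48 in sh-NC/HG. Ptprc, the pan-leukocyte marker, had 0 and 16 counts in the same libraries, and Cd68 had 3.10 CPM in sh-JAML/HG and 3.85 CPM in sh-NC/HG. Csf1r and Cd14, which were better counted, were closer to even. Csf1r had 56.26 CPM in sh-JAML/HG and 49.98 CPM in sh-NC/HG, with 15.1% of its exon bases shared. Cd14 had 28.7 CPM in sh-JAML/HG and 29.4 CPM in sh-NC/HG. The sum of the 8 leukocyte markers, which include Csf1r but not Cd14, was 59.4 CPM in sh-JAML/HG and 57.5 CPM in sh-NC/HG. Most of that sum is Csf1r itself. The part of such cells in the result was not tested.

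Complement and acute-phase genes had the lowest median of the lists. Of 14 measured genes 11 lay below 0, 9 of them by 2-fold or more, and 2 were higher by 2-fold or more, with a median of -1.56 (0.01 without high glucose). Of the genes named below, C4b, Lcn2, Saa3, Nos2 and Acod1 reached the count minimum only through sh-NC/HG. Their direction follows from the filter, and the count and median of the list are affected by such members. C3 (chr17:57203970-57228136 (-)), the hub of the complement cascade, had 25.6 CPM in sh-JAML/HG and 420.4 CPM in sh-NC/HG, beside 27.7 CPM for sh-JAML and 41.2 for sh-NC, and was 16.4-fold lower (15 to 17.9). C4b of the classical pathway had 0.319 CPM in sh-JAML/HG and 7.74 CPM in sh-NC/HG, beside 0.262 CPM for sh-JAML and 0.214 for sh-NC, or 24.2-fold lower (11.1 to 58.8). C2, the partner protease of C4, had the opposite pattern, with 3.39 CPM in sh-JAML/HG and 0.375 CPM in sh-NC/HG, beside 2.09 CPM for sh-JAML and 2.06 for sh-NC, but is uncertain, since 46.9% of its exon bases are shared with another gene. Ceruloplasmin (Cp), a copper ferroxidase, had 167 CPM in sh-JAML/HG and 546 CPM in sh-NC/HG, beside 172 CPM for sh-JAML and 212 for sh-NC. Outside the list, the lipopolysaccharide-binding protein Lbp had 53.4 CPM in sh-JAML/HG and 204 CPM in sh-NC/HG, beside 69.7 CPM for sh-JAML and 57.8 for sh-NC. Among acute-phase proteins, Lcn2, a siderophore-binding lipocalin, had 0.496 CPM in sh-JAML/HG and 11.7 CPM in sh-NC/HG, beside 0.698 CPM for sh-JAML and 0.339 for sh-NC. Saa3 (serum amyloid) had no count in sh-JAML/HG and 479 in sh-NC/HG, and was at least 36.2-fold lower. Nos2, the inducible nitric oxide synthase, had none in sh-JAML/HG and 583 in sh-NC/HG, and was at least 44.0-fold lower. Without high glucose Nos2 had 5 counts for sh-JAML and 5 for sh-NC, and Saa3 had 27 for sh-JAML and 16 for sh-NC. Acod1, which makes itaconate in activated cells, had 0.378 CPM in sh-JAML/HG and 5.64 CPM in sh-NC/HG.

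Some of the lowest ratios lay outside the inflammatory lists. Cldn19, a tight-junction claudin, had 0.225 CPM in sh-JAML/HG and 6.5 CPM in sh-NC/HG, beside 1.76 CPM for sh-JAML and 1.87 for sh-NC, and was 29.0-fold lower (11.6 to 86.1). Lifr, the receptor of leukemia inhibitory factor, had 1.61 CPM in sh-JAML/HG and 31.4 CPM in sh-NC/HG, beside 4.02 CPM for sh-JAML and 2.26 for sh-NC. Abi3bp, a matrix protein, had 3.78 CPM in sh-JAML/HG and 49.8 CPM in sh-NC/HG, beside 3.74 CPM for sh-JAML and 4.93 for sh-NC. All 3 had 1 high library, sh-NC/HG. Mrc2, a collagen-binding endocytic receptor, had 0.236 CPM in sh-JAML/HG and 4.23 CPM in sh-NC/HG, beside 0.324 CPM for sh-JAML and 0.264 for sh-NC, and was 17.9-fold lower (7.44 to 56.5). Decorin (Dcn), a matrix proteoglycan of fibroblasts, had 0.579 CPM in sh-JAML/HG and 6.44 CPM in sh-NC/HG, beside 0.797 CPM for sh-JAML and 0.427 for sh-NC. Desmin (Des), of mesangial and muscle cells, had 17 counts in sh-JAML/HG and 216 in sh-NC/HG. The endothelial marker Flt1 had 84 counts in sh-JAML/HG and 353 in sh-NC/HG. Pdgfra, of the same mesangial and fibroblast set as Dcn and Des, had 0 counts in sh-JAML/HG and 28 in sh-NC/HG. Other markers of that set were closer to even. Acta2 had 742 CPM in sh-JAML/HG and 677 CPM in sh-NC/HG, and Pdgfrb had 126 CPM in sh-JAML/HG and 133 CPM in sh-NC/HG. The summed level of that marker set, most of it from Acta2 and Pdgfrb, was 871 CPM in sh-JAML/HG and 821 CPM in sh-NC/HG. The part of other glomerular cell types was not tested. Usp50 differed between hairpins at either glucose level, with 0.272 CPM in sh-JAML/HG and 3.61 CPM in sh-NC/HG, beside 0.0748 CPM for sh-JAML and 3.08 for sh-NC.

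**Figure D3:**
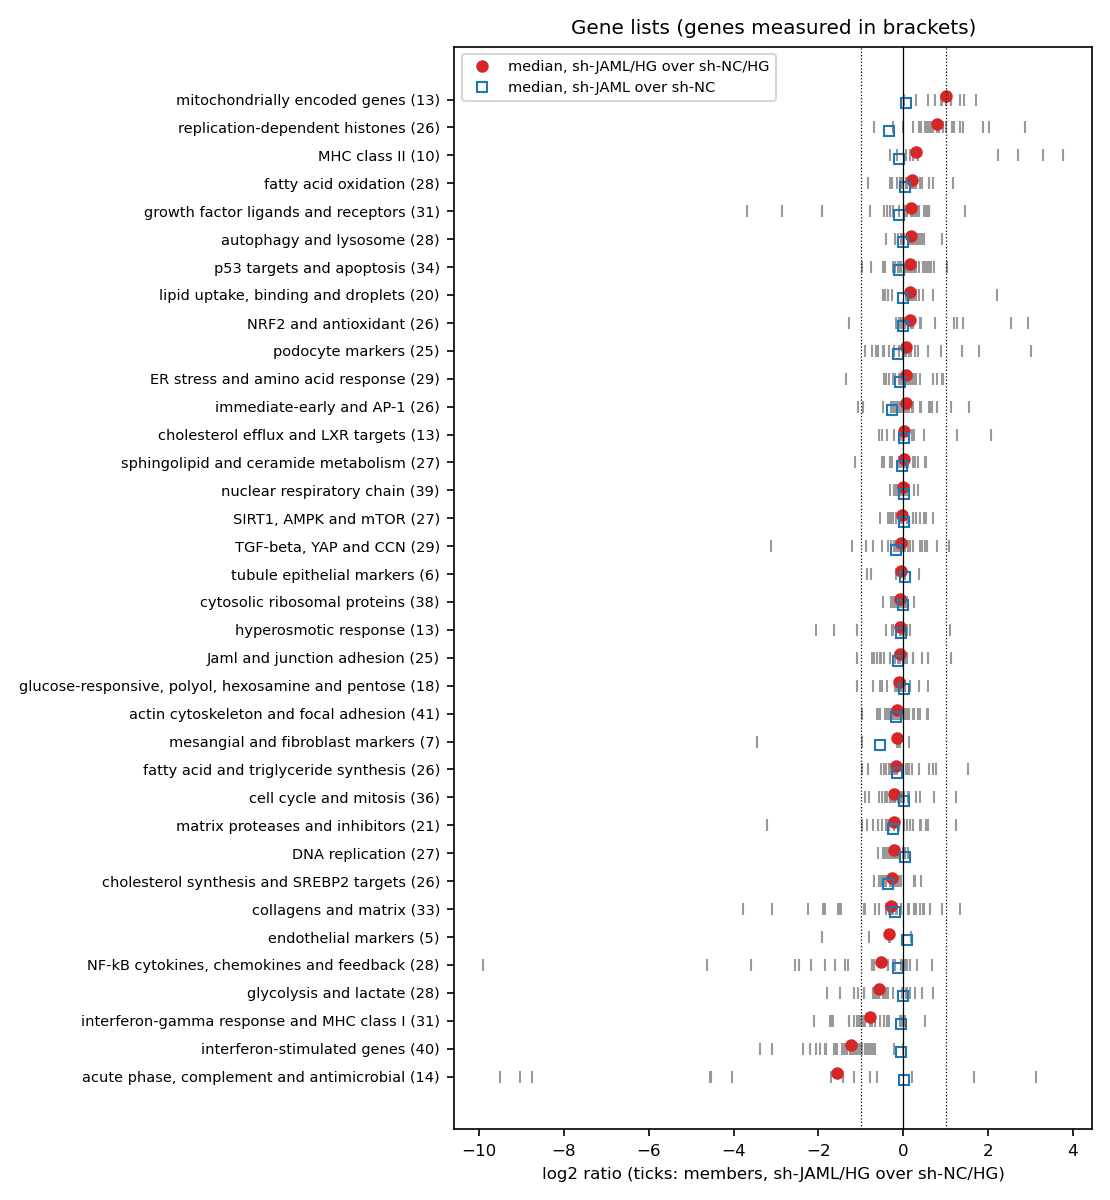
Log2 ratios by gene list: grey ticks are members in sh-JAML/HG over sh-NC/HG, filled circles their medians, and open squares the medians of the same genes in sh-JAML over sh-NC; brackets give the genes measured, for lists with 5 or more. Ticks left of -8 are genes with no count in sh-JAML/HG, whose place depends on the prior count. Medians under high glucose run from -1.56 for the acute-phase list to 1.0 for the mitochondrially encoded genes, and without high glucose from -0.55 for the mesangial to 0.099 for the endothelial markers.

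Cholesterol synthesis was lower in sh-JAML/HG for most genes, by less than 2-fold, with log2 ratios from -0.68 to 0.43. Of 26 genes 23 lay below 0 and none was 2-fold apart, with a median of -0.27, and the pair without high glucose gave -0.35 with 24 of 26 below 0. These are the genes that SREBP2 switches on when sterol runs low. Srebf2, which encodes it, had 507 CPM in sh-JAML/HG and 812 CPM in sh-NC/HG, beside 504 CPM for sh-JAML and 594 for sh-NC, and was 1.60-fold lower (1.56 to 1.64). Sqle, the squalene epoxidase, had 233 CPM in sh-JAML/HG and 348 CPM in sh-NC/HG, beside 128 CPM for sh-JAML and 168 for sh-NC. In both genes the Jaml hairpin was the lower of each pair. Hmgcs1, which starts the pathway, had 571 CPM in sh-JAML/HG and 688 CPM in sh-NC/HG. The exceptions above 0 were Mvk (0.26), Scap (0.28), which escorts SREBP, and Ebp (0.43).

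Fatty acid and triglyceride synthesis was split, with 15 of 26 genes below 0, 11 above it and a median of -0.17 (-0.14 without high glucose). Srebf1, the SREBP of fatty acid synthesis, had 99.4 CPM in sh-JAML/HG and 117 CPM in sh-NC/HG, beside 97.9 CPM for sh-JAML and 91.4 for sh-NC, and was 1.18-fold lower (1.11 to 1.25). Fasn, the fatty acid synthase, had 544 CPM in sh-JAML/HG and 688 CPM in sh-NC/HG, beside 548 CPM for sh-JAML and 623 for sh-NC. Acaca, which makes malonyl-CoA, had 116 CPM in sh-JAML/HG and 132 CPM in sh-NC/HG, beside 116 CPM for sh-JAML and 128 for sh-NC. All 3 were lower with the Jaml hairpin under high glucose by log2 ratios of -0.24, -0.34 and -0.19, beside a lower quartile of -0.23 over all genes. The desaturase Scd1 had 288 CPM in sh-JAML/HG and 332 CPM in sh-NC/HG, beside 280.3 CPM for sh-JAML and 367 for sh-NC. Its relative Scd2 had 530.1 CPM in sh-JAML/HG and 710.1 CPM in sh-NC/HG. Acly, the citrate lyase, had 398 CPM in sh-JAML/HG and 498 CPM in sh-NC/HG. The desaturase Fads2 went the other way, with 745 CPM in sh-JAML/HG and 574 CPM in sh-NC/HG. So did the malic enzyme Me1, with 72.9 CPM in sh-JAML/HG and 44.9 CPM in sh-NC/HG. Mid1ip1, an activator of acetyl-CoA carboxylase, was the 1 member past 2-fold, with 204 CPM in sh-JAML/HG and 71.0 CPM in sh-NC/HG, although 25.5% of its exon bases are shared with another gene. The lipins, phosphatidate phosphatases, differed in sign. Lpin1 had 71.5 CPM in sh-JAML/HG and 41.9 CPM in sh-NC/HG, and Lpin2 had 21.2 CPM in sh-JAML/HG and 41.7 CPM in sh-NC/HG.

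More genes of lipid use and storage lay above 0 than below it. In fatty acid oxidation 18 of 28 genes lay above 0 (median 0.20, and 0.04 without high glucose), and in lipid uptake and droplets 16 of 20 (median 0.16, and 0.01), beside 50.3% of all genes. Cpt1a, the gate for fatty acids into mitochondria, had 205 CPM in sh-JAML/HG and 172 CPM in sh-NC/HG, beside 224 CPM for sh-JAML and 203 for sh-NC. Acadl, an acyl-CoA dehydrogenase, had 153 CPM in sh-JAML/HG and 112 CPM in sh-NC/HG. Pdk4, which turns pyruvate away from the citric acid cycle, was the 1 oxidation gene past 2-fold, with 2.41 CPM in sh-JAML/HG and 1.06 CPM in sh-NC/HG. Ppard, a nuclear receptor of this pathway, was lower, with 29.9 CPM in sh-JAML/HG and 52.8 CPM in sh-NC/HG. The droplet coat protein Plin2 had 275 CPM in sh-JAML/HG and 169.6 CPM in sh-NC/HG, beside 259 CPM for sh-JAML and 303 for sh-NC, and was 1.62-fold higher (1.56 to 1.69). Plin4 had 13.3 CPM in sh-JAML/HG and 2.88 CPM in sh-NC/HG, beside 9.32 CPM for sh-JAML and 11.2 for sh-NC, and was 4.61-fold higher (3.53 to 6.13). In both genes sh-NC/HG was the lowest of the 4. The cholesterol exporter Abca1 had 3.25 CPM in sh-JAML/HG and 0.771 CPM in sh-NC/HG, beside 1.73 CPM for sh-JAML and 3.02 for sh-NC, and was 4.21-fold higher (2.49 to 7.55). Pltp, the phospholipid transfer protein, had 46.8 CPM in sh-JAML/HG and 19.5 CPM in sh-NC/HG. The 13 genes of cholesterol efflux and LXR targets had a median of 0.02. Sphingolipid genes centred on 0 (median 0.01, with 15 of 27 above 0), and Sphk1, which makes sphingosine-1-phosphate, was the 1 member past 2-fold, with 3.23 CPM in sh-JAML/HG and 7.17 CPM in sh-NC/HG.

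**Figure D4:**
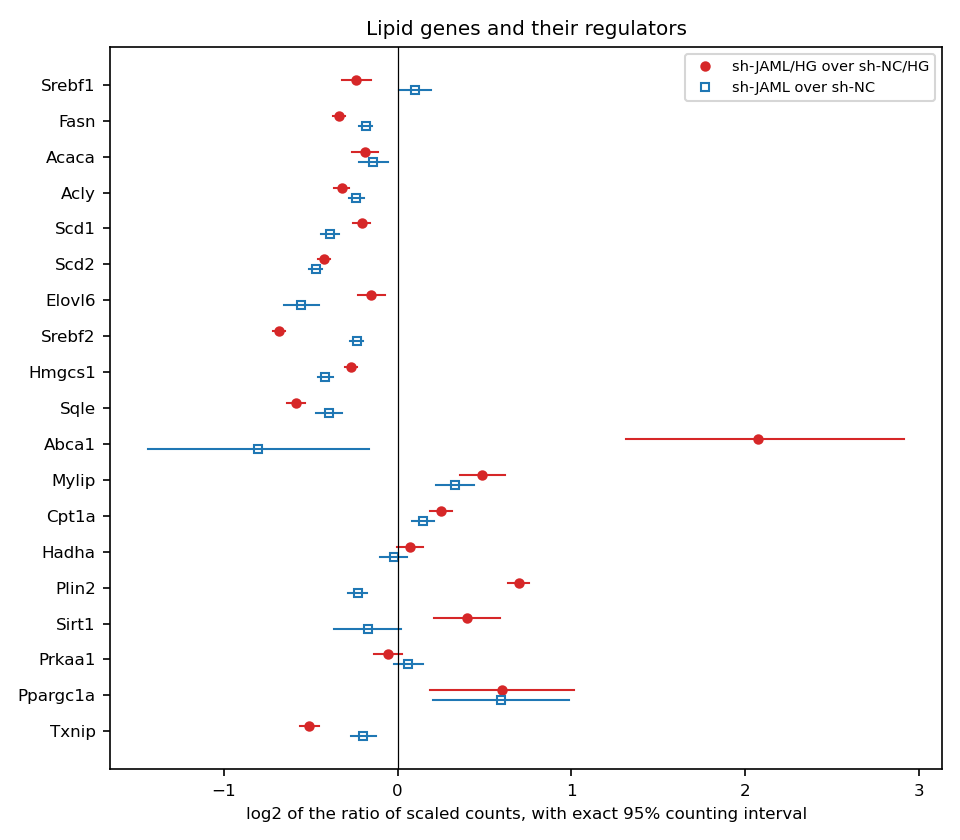
Log2 of the ratio of scaled counts for lipid genes and regulators, with exact 95% counting intervals, in sh-JAML/HG over sh-NC/HG (filled circles) and sh-JAML over sh-NC (open squares). The genes are a selection. Of those shown, synthesis genes from Srebf1 to Sqle lie left of 0 under high glucose, Cpt1a and Plin2 lie right of it, and Abca1 has the widest interval. Of all 26 measured fatty acid and triglyceride synthesis genes 11 lay above 0, and Fads2, Me1, Mid1ip1 and Lpin1 among them are not shown.

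The sirtuin and AMPK genes were nearly even. Of 27 genes none was 2-fold apart, 18 lay below 0, and the median was -0.02. Sirt1, the deacetylase, had 24.0 CPM in sh-JAML/HG and 18.2 CPM in sh-NC/HG, beside 20.4 CPM for sh-JAML and 23 for sh-NC, and was 1.32-fold higher (1.16 to 1.5). Prkaa1 and Prkaa2, the catalytic subunits of AMPK, had log2 ratios of -0.05 and 0.70, and Prkaa2 had 41.9 CPM in sh-JAML/HG and 25.8 CPM in sh-NC/HG. Ppargc1a, a coactivator of mitochondrial genes, had 5.59 CPM in sh-JAML/HG and 3.69 CPM in sh-NC/HG, beside 6.95 CPM for sh-JAML and 4.6 for sh-NC. Nampt, which makes NAD precursors for sirtuins, had 97.8 CPM in sh-JAML/HG and 144 CPM in sh-NC/HG.

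Glycolytic genes were lower in sh-JAML/HG. Of 28 genes 22 lay below 0 and 4 were lower by 2-fold or more, with a median of -0.57 beside -0.02 without high glucose, and sh-NC/HG was the highest library for 21. Ldha (chr7:46841475-46855627 (+)), which turns pyruvate into lactate, had 301 CPM in sh-JAML/HG and 850.2 CPM in sh-NC/HG, beside 294 CPM for sh-JAML and 334 for sh-NC, and was 2.83-fold lower (2.75 to 2.91). Pfkl, a phosphofructokinase, had 138 CPM in sh-JAML/HG and 306 CPM in sh-NC/HG, beside 142 CPM for sh-JAML and 127 for sh-NC. Pgk1, the phosphoglycerate kinase, had 296 CPM in sh-JAML/HG and 619 CPM in sh-NC/HG, beside 279 CPM for sh-JAML and 330.4 for sh-NC. Eno1, the enolase, had 738 CPM in sh-JAML/HG and 1155 CPM in sh-NC/HG. Pkm, which makes pyruvate, had 1452 CPM in sh-JAML/HG and 2271 CPM in sh-NC/HG, beside 1611 CPM for sh-JAML and 1689 for sh-NC. Aldoc, an aldolase, had 0.969 CPM in sh-JAML/HG and 3.42 CPM in sh-NC/HG, the lowest ratio of the list. Ldhb, the isozyme that favours pyruvate, went the other way, with 277 CPM in sh-JAML/HG and 170.3 CPM in sh-NC/HG, beside 317 CPM for sh-JAML and 319.9 for sh-NC. Hif1a, an activator of the pathway, was even in RNA, with 170.0 CPM in sh-JAML/HG and 172 CPM in sh-NC/HG. The glucose transporter Slc2a1 had 68.3 CPM in sh-JAML/HG and 94.8 CPM in sh-NC/HG.

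Other glucose-responsive genes were mostly near 0 (median -0.11, with 11 of 18 below it). Txnip, a thioredoxin inhibitor that glucose induces through MLXIP and ChREBP, had 196 CPM in sh-JAML/HG and 278 CPM in sh-NC/HG, beside 151 CPM for sh-JAML and 173 for sh-NC, with 19.4% of its exon bases shared. Akr1b3, the aldose reductase of the polyol pathway, had 91.9 CPM in sh-JAML/HG and 197 CPM in sh-NC/HG, beside 166 CPM for sh-JAML and 163 for sh-NC, so here sh-JAML/HG was the low library. Tkt of the pentose pathway had 479 CPM in sh-JAML/HG and 784 CPM in sh-NC/HG. In the hyperosmotic list 3 of 13 genes were lower by 2-fold or more, Akr1b3, Aqp1 and S100a4, and Sgk1, a kinase of sodium transport, was higher, with 19.3 CPM in sh-JAML/HG and 8.94 CPM in sh-NC/HG. The water channel Aqp1 had 94.9 CPM in sh-JAML/HG and 294 CPM in sh-NC/HG, beside 280.3 CPM for sh-JAML and 293 for sh-NC, so sh-JAML/HG stood alone at the low end. The osmolyte carriers did not share this: Slc5a3 (myo-inositol) had 22.1 CPM in sh-JAML/HG and 22.0 CPM in sh-NC/HG, and Slc6a6 (taurine) had 1017 CPM in sh-JAML/HG and 1068 CPM in sh-NC/HG. Nfat5, the tonicity factor, had 188 CPM in sh-JAML/HG and 221 CPM in sh-NC/HG.

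Matrix genes were split by family. The list of 33 had 21 below 0, 9 of them by 2-fold or more, and 12 above 0, 1 of them by 2-fold or more, with a median of -0.29 (-0.20 without high glucose). Type VI collagen was lower in 3 of 3 measured chains. Of these, Col6a3 reached the count minimum only through its 316 counts in sh-NC/HG, beside 20 in sh-JAML/HG, 22 in sh-JAML and 58 in sh-NC. Its direction therefore follows from the filter and adds nothing to the other chains. Col6a1 had 90.6 CPM in sh-JAML/HG and 263 CPM in sh-NC/HG, beside 91.7 CPM for sh-JAML and 81.9 for sh-NC. Col6a2 had 3.38 CPM in sh-JAML/HG and 12.5 CPM in sh-NC/HG, and Col6a3 had 0.236 CPM in sh-JAML/HG and 3.39 CPM in sh-NC/HG. The laminin chain Lama1 had 0.236 CPM in sh-JAML/HG and 2.10 CPM in sh-NC/HG, and periostin (Postn) had 0.981 CPM in sh-JAML/HG and 3.65 CPM in sh-NC/HG. The 5 type IV chains, of the basement membrane, all lay above 0, from 0.07 to 1.79. Col4a1 had 2002 CPM in sh-JAML/HG and 1637 CPM in sh-NC/HG. Col4a4, a chain of the mature glomerular membrane, had 3.5 CPM in sh-JAML/HG and 1.34 CPM in sh-NC/HG, beside 4.22 CPM for sh-JAML and 4.34 for sh-NC, and its partner Col4a3 had 65 counts in sh-JAML/HG and 20 in sh-NC/HG. Fibronectin (Fn1) had 2137 CPM in sh-JAML/HG and 1372 CPM in sh-NC/HG, beside 1976 CPM for sh-JAML and 2580.1 for sh-NC. Thbs1, which activates latent TGF-beta, had 2181 CPM in sh-JAML/HG and 1574 CPM in sh-NC/HG, beside 2714 CPM for sh-JAML and 3576 for sh-NC. For these 2 the order without high glucose was reversed, with sh-JAML below sh-NC. Sparc, a collagen-binding protein, had the largest CPM difference downward of all genes, with 1648 CPM in sh-JAML/HG and 2635 CPM in sh-NC/HG, beside 1669 CPM for sh-JAML and 1562 for sh-NC. Osteopontin (Spp1) had 39.4 CPM in sh-JAML/HG and 141 CPM in sh-NC/HG, with 18.8% of exon bases shared. Mmp9, a gelatinase, had 0.307 CPM in sh-JAML/HG and 2.94 CPM in sh-NC/HG.

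Genes of TGF-beta and YAP had a median of -0.05 with 3 of 29 past 2-fold. The ligand Tgfb3 had 0.201 CPM in sh-JAML/HG and 1.84 CPM in sh-NC/HG, while Tgfb1 had 66.9 CPM in sh-JAML/HG and 69.1 CPM in sh-NC/HG. The inhibitor Id3 had 16.6 CPM in sh-JAML/HG and 38.1 CPM in sh-NC/HG. Ccn2, a secreted target of YAP and TGF-beta, had 182 CPM in sh-JAML/HG and 138 CPM in sh-NC/HG, beside 183 CPM for sh-JAML and 342 for sh-NC. Among 41 actin and adhesion genes 28 lay below 0 and none was 2-fold apart (median -0.15, and -0.18 with 38 below 0 without high glucose). Actg1 (gamma-actin) had 1371 CPM in sh-JAML/HG and 1845 CPM in sh-NC/HG. Vcl (vinculin) of focal adhesions had 537 CPM in sh-JAML/HG and 704 CPM in sh-NC/HG. Vim (vimentin), an intermediate filament, was higher, with 963 CPM in sh-JAML/HG and 640.0 CPM in sh-NC/HG. Cdh6, a cadherin of the embryonic kidney, had 398 CPM in sh-JAML/HG and 110.1 CPM in sh-NC/HG, beside 450.0 CPM for sh-JAML and 452 for sh-NC. Jag1, a Notch ligand, had 261 CPM in sh-JAML/HG and 117 CPM in sh-NC/HG, beside 309.9 CPM for sh-JAML and 327 for sh-NC.

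Podocyte genes did not share a direction, with 15 of 25 above 0 and a median of 0.07. Nes (nestin) had 409 CPM in sh-JAML/HG and 619 CPM in sh-NC/HG, beside 394 CPM for sh-JAML and 481 for sh-NC. Synpo (synaptopodin), an actin organiser of foot processes, had 180.3 CPM in sh-JAML/HG and 246 CPM in sh-NC/HG, beside 172 CPM for sh-JAML and 218 for sh-NC. Cd2ap, a slit-diaphragm adaptor, had 219 CPM in sh-JAML/HG and 304 CPM in sh-NC/HG, and Actn4, the podocyte actinin, 709 CPM in sh-JAML/HG and 819 CPM in sh-NC/HG. Thsd7a, a podocyte surface antigen, had 21.8 CPM in sh-JAML/HG and 2.68 CPM in sh-NC/HG, beside 24.9 CPM for sh-JAML and 20.7 for sh-NC, and was 8.14-fold higher (6.28 to 10.9). Wt1 had 81 counts in sh-JAML/HG and 59 in sh-NC/HG, a ratio of 1.51 whose interval (0.716 to 3.09) spans 1.

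Metallothioneins had the highest ratios of the 4578 genes averaging 5000 counts or more. Mt1, a zinc and copper buffer, had 909 CPM in sh-JAML/HG and 119 CPM in sh-NC/HG, beside 698 CPM for sh-JAML and 438 for sh-NC, and was 7.63-fold higher (7.33 to 7.94). Mt2 had 241 CPM in sh-JAML/HG and 41.1 CPM in sh-NC/HG, beside 193 CPM for sh-JAML and 109 for sh-NC, with 73.5% of its exon bases shared. Both were also higher with the Jaml hairpin without high glucose, by log2 ratios of 0.67 and 0.82, and sh-NC/HG was the lowest of the 4. In the antioxidant list 17 of 26 lay above 0, 5 of them by 2-fold or more, and 1 was lower by 2-fold or more (median 0.15). Gclc, which starts glutathione synthesis, had 224 CPM in sh-JAML/HG and 93.2 CPM in sh-NC/HG, beside 213 CPM for sh-JAML and 196 for sh-NC. Nox4, a superoxide and peroxide source, had 46.4 CPM in sh-JAML/HG and 17.4 CPM in sh-NC/HG, beside 47.6 CPM for sh-JAML and 49.3 for sh-NC. Gstm2 was the 1 lower member past 2-fold, with 82.7 CPM in sh-JAML/HG and 199.9 CPM in sh-NC/HG. Nfe2l2, which encodes NRF2, had 104 CPM in sh-JAML/HG and 103 CPM in sh-NC/HG, and its target Hmox1 had 98.9 CPM in sh-JAML/HG and 84.4 CPM in sh-NC/HG. Ferritin light chain (Ftl1) had 1215 CPM in sh-JAML/HG and 588 CPM in sh-NC/HG, with 34.6% of exon bases shared.

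Of the p53 targets 21 of 34 lay above 0, with a median of 0.16 (-0.10 without high glucose). Cdkn1a, the p21 inhibitor of cyclin kinases, had 799 CPM in sh-JAML/HG and 487 CPM in sh-NC/HG, beside 657 CPM for sh-JAML and 711 for sh-NC. Bbc3 (PUMA), which triggers apoptosis, had 88.1 CPM in sh-JAML/HG and 42.9 CPM in sh-NC/HG. Bax, a pore former, had 176 CPM in sh-JAML/HG and 114 CPM in sh-NC/HG, and Mdm2, the ligase of p53, had 185 CPM in sh-JAML/HG and 134 CPM in sh-NC/HG. Trp53 itself had 203 CPM in sh-JAML/HG and 185 CPM in sh-NC/HG. The survival factor Bcl2l1 was lower, with 63.0 CPM in sh-JAML/HG and 124 CPM in sh-NC/HG. Cell-cycle genes had 27 of 36 below 0 (median -0.21, and 0.01 without high glucose) and DNA replication genes 20 of 27 (median -0.22, and 0.05). Mki67, a marker of cycling cells, had 348 CPM in sh-JAML/HG and 433 CPM in sh-NC/HG, beside 315 CPM for sh-JAML and 293 for sh-NC. Top2a, a topoisomerase, had 350.5 CPM in sh-JAML/HG and 472 CPM in sh-NC/HG. Pcna, the replication clamp, had 462 CPM in sh-JAML/HG and 461 CPM in sh-NC/HG. Ccnd3, a cyclin, was the 1 member past 2-fold and was 2-fold higher with the Jaml hairpin in each pair, with 54.6 CPM in sh-JAML/HG and 23.1 CPM in sh-NC/HG, beside 53.6 CPM for sh-JAML and 20.7 for sh-NC.

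Replication-dependent histones lay on the other side from these proliferation genes. Of 26 measured histone genes 23 lay above 0 and 8 were at least 2-fold higher, with a median of 0.81 (-0.34 without high glucose), and sh-NC/HG was the lowest library for 22. Hist1h1c, a linker histone, had 182 CPM in sh-JAML/HG and 136 CPM in sh-NC/HG, beside 219.7 CPM for sh-JAML and 249.6 for sh-NC. Hist1h2bc, a core histone, had 65.1 CPM in sh-JAML/HG and 42.4 CPM in sh-NC/HG. Hist1h4h had 3.97 CPM in sh-JAML/HG and 0.975 CPM in sh-NC/HG, beside 4.31 CPM for sh-JAML and 5.63 for sh-NC. The highest ratio was that of Hist2h2aa1, with 20.8 CPM in sh-JAML/HG and 2.85 CPM in sh-NC/HG, beside 10.9 CPM for sh-JAML and 0.641 for sh-NC, and it is uncertain because all of its exon bases are shared with another gene. Most histone messages lack a poly(A) tail, and the labels do not say how RNA was selected.

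Mitochondrially encoded messages were higher in 13 of 13 genes, 7 by 2-fold or more, with a median of 1.0 (0.06 without high glucose). mt-Nd2, a complex I subunit, had 1281 CPM in sh-JAML/HG and 388 CPM in sh-NC/HG, beside 1196 CPM for sh-JAML and 1143 for sh-NC, and was 3.30-fold higher (3.23 to 3.38). mt-Cytb of complex III had 2855 CPM in sh-JAML/HG and 1425 CPM in sh-NC/HG, beside 2658 CPM for sh-JAML and 2492 for sh-NC. mt-Co1 of complex IV had 4953 CPM in sh-JAML/HG and 4912 CPM in sh-NC/HG. The difference was thus graded, from 0.01 for mt-Co1 over 0.30 for mt-Co2 and 0.59 for mt-Co3 to 1.35 for mt-Nd4 and 1.72 for mt-Nd2. The mitochondrial ribosomal RNA mt-Rnr1 went against it, with 48.2 CPM in sh-JAML/HG and 138 CPM in sh-NC/HG, beside 63.3 CPM for sh-JAML and 60.0 for sh-NC. The larger ribosomal RNA mt-Rnr2 differed less, with 171 CPM in sh-JAML/HG and 229.5 CPM in sh-NC/HG, beside 197 CPM for sh-JAML and 214 for sh-NC, a log2 ratio of -0.43. Mitochondrially encoded genes took 2.18% of all counts for sh-JAML/HG, 1.37% for sh-NC/HG, 2.11% for sh-JAML and 1.99% for sh-NC. The 39 nuclear genes of the respiratory chain were even, with a median of -0.01 and a range of -0.30 to 0.34, and the 38 cytosolic ribosomal protein genes had a median of -0.07. RNA quality values are not given in the labels, and their part in the result was not tested.

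Stress and lysosomal genes differed little. In the ER stress and amino acid list 16 of 29 lay above 0 (median 0.07). Atf3 was the 1 member past 2-fold, with 10.3 CPM in sh-JAML/HG and 26.1 CPM in sh-NC/HG, beside 11.3 CPM for sh-JAML and 11.3 for sh-NC. Asns, the asparagine synthetase, had 49.9 CPM in sh-JAML/HG and 25.8 CPM in sh-NC/HG. The chaperone Hspa5 had 384 CPM in sh-JAML/HG and 523 CPM in sh-NC/HG. Of 28 autophagy and lysosome genes 21 lay above 0 (median 0.19), led by Gabarapl1, a ubiquitin-like protein of autophagosomes, with 239 CPM in sh-JAML/HG and 128 CPM in sh-NC/HG. Ctsd, a lysosomal protease, had 1109 CPM in sh-JAML/HG and 918 CPM in sh-NC/HG. Of 26 immediate-early genes 14 lay above 0 (median 0.06). Fos had 9.66 CPM in sh-JAML/HG and 18.6 CPM in sh-NC/HG, whereas Egr2 had 3.33 CPM in sh-JAML/HG and 1.14 CPM in sh-NC/HG. Growth factor genes had 19 of 31 above 0, with 1 higher and 4 lower by 2-fold or more (median 0.19). Tgfa, an EGF receptor ligand, had 28.4 CPM in sh-JAML/HG and 10.4 CPM in sh-NC/HG, beside 29.2 CPM for sh-JAML and 26.7 for sh-NC. Fgf7, an epithelial growth factor, had 1.41 CPM in sh-JAML/HG and 5.36 CPM in sh-NC/HG. Btc (betacellulin), of the EGF family, had 0.225 CPM in sh-JAML/HG and 1.71 CPM in sh-NC/HG.

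Among the highest ratios, Bola1 and Ppp1r26 were high in sh-JAML/HG alone. Bola1, a mitochondrial iron-sulfur protein, had 27.0 CPM in sh-JAML/HG and 1.94 CPM in sh-NC/HG, beside 2.60 CPM for sh-JAML and 1.37 for sh-NC, and was 13.9-fold higher (10.3 to 19.4). Ppp1r26, a phosphatase regulator, had 26.2 CPM in sh-JAML/HG and 3.01 CPM in sh-NC/HG, beside 2.52 CPM for sh-JAML and 2.70 for sh-NC. The others followed the pattern of a low sh-NC/HG library. Sfrp1, a secreted Wnt inhibitor, had 7.20 CPM in sh-JAML/HG and 0.686 CPM in sh-NC/HG, beside 8.30 CPM for sh-JAML and 12.5 for sh-NC. Stard8, a GTPase-activating protein, had 101 CPM in sh-JAML/HG and 19.1 CPM in sh-NC/HG, beside 116 CPM for sh-JAML and 113 for sh-NC, and was 5.28-fold higher (4.76 to 5.86). Pygo2, a Wnt pathway coactivator, had 148 CPM in sh-JAML/HG and 31.3 CPM in sh-NC/HG, beside 136 CPM for sh-JAML and 135 for sh-NC. Smad9, a BMP mediator, had 8.89 CPM in sh-JAML/HG and 1.46 CPM in sh-NC/HG, and Cacna1h, a calcium channel, had 3.40 CPM in sh-JAML/HG and 0.386 CPM in sh-NC/HG. Elavl2, an RNA-binding protein, had 191 counts in sh-JAML/HG and 13 in sh-NC/HG, 16.2-fold higher (5.69 to 88.6).

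The pair without high glucose shares no library with the high-glucose pair and shows the same hairpins. Of the 399 higher genes 24 were 2-fold up there too (6.02% of the 399 and 12.9% of the 186), and of the 678 lower genes 48 were 2-fold down there too (7.08% of the 678 and 24.2% of the 198). In 26 genes the ratio was 2-fold up under high glucose and 2-fold down without it, and in 38 the reverse. For 1 of the 26 both libraries of the high-glucose pair were at or under the floor. Across all 14187 genes the log2 ratios of the pairs correlated with Pearson's r at 0.0066 and Spearman's rank correlation at 0.039, as a description, since genes are not replicates of a condition. The same side of 0 in each pair was found for 51.3% of the 1077 genes past 2-fold and for 51.9% of all genes.

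Among genes averaging 100 counts or more, protein-coding and with under 10% shared exon bases, 5 were 2-fold up and 18 were 2-fold down in each pair. Under the same limits 10 were 2-fold up under high glucose and down without it, and 8 the reverse. How many genes passed these limits is not given here, so these are counts without a share. The interval of the ratio without high glucose spans 1 for members of the 18 that include Acod1, Col6a3, Cxcl5 and Wasf3. It also spans 1 for members of the 8 that include Lcn2. Those named below were chosen after their values were seen. Dnmt3a (chr12:3806007-3914443 (+)), a de novo DNA methyltransferase, had 41.4 CPM in sh-JAML/HG and 121 CPM in sh-NC/HG, and 40.0 CPM for sh-JAML and 121 for sh-NC, so it was 2.91-fold lower (2.70 to 3.15) in the first pair and 3.02-fold lower (2.79 to 3.27) in the second. Fam107b had 40.6 CPM in sh-JAML/HG and 165 CPM in sh-NC/HG, and 38.3 CPM for sh-JAML and 174 for sh-NC. Emp1, an epithelial membrane protein, had 125 CPM in sh-JAML/HG and 41.9 CPM in sh-NC/HG, and 112 CPM for sh-JAML and 38.0 for sh-NC. For these genes the libraries of 1 hairpin nearly coincided whatever the glucose level. Sumo3, a ubiquitin-like modifier, had 110.2 CPM in sh-JAML/HG and 35.7 CPM in sh-NC/HG, and 122 CPM for sh-JAML and 43.7 for sh-NC. March8, a ubiquitin ligase of membrane proteins, had 48.9 CPM in sh-JAML/HG and 102 CPM in sh-NC/HG, and 37.4 CPM for sh-JAML and 123 for sh-NC. Dnmt3a, March8 and Fam107b were the lower ones, and Emp1, Sumo3 and Ccnd3 the higher. Fn3k, a kinase that reverses protein glycation, was higher in each pair as well, with 4.24 CPM in sh-JAML/HG and 1.30 CPM in sh-NC/HG, and 4.72 CPM for sh-JAML and 1.94 for sh-NC.

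**Figure D5:**
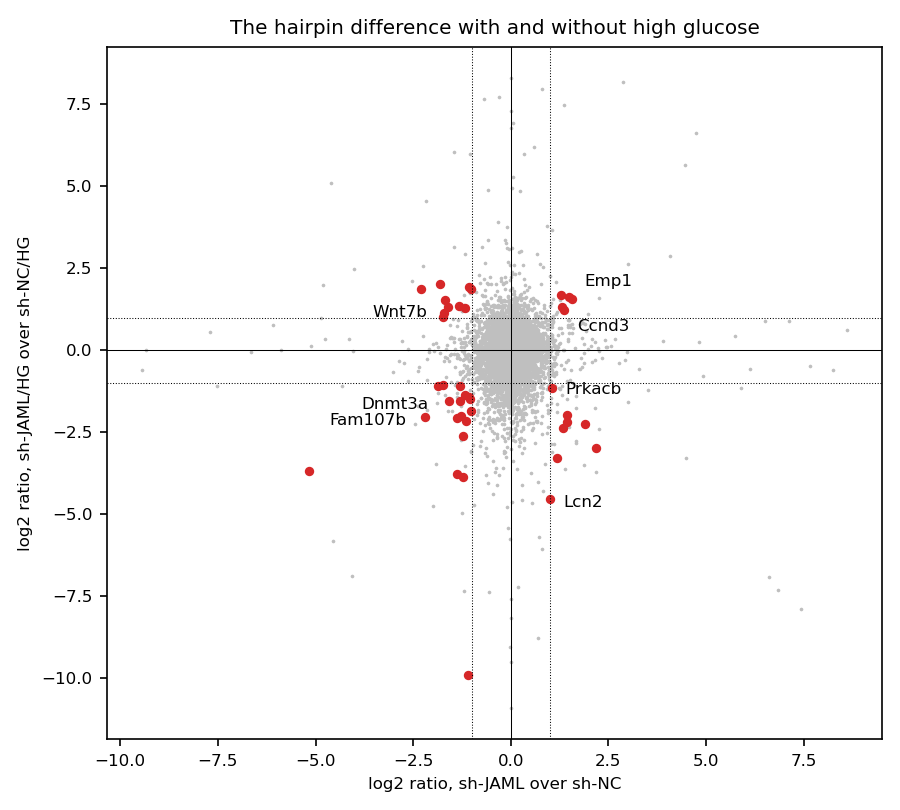
Log2 ratio of sh-JAML/HG over sh-NC/HG (vertical) against that of sh-JAML over sh-NC (horizontal) for 14187 genes, with dotted lines at 2-fold. Red points are protein-coding genes averaging 100 counts or more, with under 10% shared exon bases, that are past 2-fold in each pair; Emp1 and Ccnd3 lie upper right, Dnmt3a and Fam107b lower left, Wnt7b upper left, and Prkacb and Lcn2 lower right.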

How the data were processed

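RNA of 4 MPC podocyte cultures was sequenced, 1 library per group, with TruSeq libraries per the labels. The deposited table holds the authors' estimated counts per Ensembl gene, with library totals that differ and no scaling recorded. The submitters' processing notes list CASAVA 1.8, TopHat2 2.0.6 and mm10, and the sources used here do not give the counter or its annotation. The columns ctr and HG, which carry no hairpin name, were taken as sh-NC and as sh-NC/HG by their names. The design text speaks of 4 treated and 4 untreated samples, of which 4 libraries are analysed here. Values were whole, so no rounding was needed, and 4 units were taken as 1 fragment because low values pile up at multiples of 4. Intervals (Clopper-Pearson, 95%, conditional on the sum) and the floor of 3 fragments, or 12 units, rest on that.

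Counts were scaled with edgeR 4.0.16 (TMM, R 4.3.3), with DESeq2 1.42.0 size factors as an alternative, and ratios used a prior count of 1. Python 3.11.15, numpy 2.4.6, pandas 2.3.3, scipy 1.17.1 and matplotlib 3.10.9 did the rest, and the ratio was tested on simulated data. GENCODE M21 (GRCm38, the build of the files) matched 55394 genes and left 999 unmatched. Promoters came from RefSeq (GRCm38.p6). The members and the 38 gene lists were chosen with earlier results of these data known. The rule for named genes took Jaml and 11 fixed genes, the 15 highest and 15 lowest ratios among protein-coding genes averaging 100 counts or more, with under 10% shared exon bases and at least 12 counts in each library of the pair, the 10 largest gains and losses in CPM, and the 3 highest and 3 lowest members of each list averaging 100 counts or more; other genes were named after their values were seen. Mx1 and Oas2 have no entry in the promoter table. Jam3, Ctsd, Gabarapl1, Rfx5, Vcl, Ccn2, S100a4, Pltp, Nfkb2, Pkm, Psmb8, Scap, Tgfb3, Bax, Hmgcs1 and H2-DMa also share over 10% of their exon bases with another gene and are uncertain for that reason. A few genes are not reported here.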

Additional observations from a re-analysis of the deposited data

Results flagged for a closer look

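For 5 of the genes named here the hairpin difference was at least 2-fold in opposite directions with and without high glucose. The difference between the pairs was not tested, since each pair has 1 library per side. Lcn2 had a log2 ratio of -4.53 for sh-JAML/HG over sh-NC/HG and 1.01 for sh-JAML over sh-NC, where it had 56 and 27 counts. The fold of sh-JAML over sh-NC was 2.06 with an interval (0.749 to 5.80) that spans 1, so this reversal is within counting error. Prkacb, a catalytic subunit of protein kinase A, had -1.15 and 1.07, with 90.6 CPM in sh-JAML/HG and 201 CPM in sh-NC/HG, beside 187 CPM for sh-JAML and 88.9 for sh-NC. Wnt7b, a Wnt ligand, had 1.02 and -1.73, with 128 CPM in sh-JAML/HG and 63.5 CPM in sh-NC/HG, beside 46.9 CPM for sh-JAML and 155 for sh-NC. Cyp26b1, described among the other observations, had 1.93 and -1.06. Hist1h4n had 1.87 and -1.02 at levels of at most 2.29 CPM. For Prkacb and Wnt7b the levels of sh-JAML/HG and sh-NC were close, as were those of sh-NC/HG and sh-JAML for Prkacb.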

How the results depend on the processing

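The number of genes at least 2-fold higher was 3438 with no count minimum and 214 with a minimum mean of 200 counts, beside 399, and that of lower genes 4106 and 353, beside 678; both minimums change how many genes enter (25808 and 11973, beside 14187). Under DESeq2 size factors, plain CPM, upper-quartile factors, TMM over the pair alone, a prior count of 5, the mitochondrially encoded genes left out and genes with under 10% shared exon bases, the counts ran from 300 to 428 higher and from 574 to 678 lower. Scalings moved the median ratio of all genes by at most 0.033 on the log2 scale. Of 341 alternative list medians 340 stayed within the list's order-statistic interval, the exception being cytosolic ribosomal proteins with plain CPM, at -0.034 beside -0.07. None of the 89 named genes past 2-fold changed side or fell under 2-fold under another scaling. No paired analysis was possible because each group has 1 library, and for the same reason no library could be left out. Genes near 50 counts, about 12 fragments, are limited by counting error.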

Other observations

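Several well-counted genes outside the lists were past 2-fold, looked up after the values were seen: of 4578 genes averaging 5000 counts or more, 46 were higher and 73 lower in sh-JAML/HG. Adh7, an alcohol and retinol dehydrogenase, had 237 CPM in sh-JAML/HG and 71.6 CPM in sh-NC/HG, beside 238 CPM for sh-JAML and 198 for sh-NC, whereas Aldh1a1, which turns retinal into retinoic acid, had 39.7 CPM in sh-JAML/HG and 109 CPM in sh-NC/HG, beside 42.8 CPM for sh-JAML and 72.8 for sh-NC. Cyp26b1, which degrades retinoic acid and was less well counted, had 29.3 CPM in sh-JAML/HG and 7.66 CPM in sh-NC/HG, beside 23.4 CPM for sh-JAML and 48.9 for sh-NC, so these retinoid enzymes did not share a direction. Ass1, the argininosuccinate synthase, had 96.5 CPM in sh-JAML/HG and 33.6 CPM in sh-NC/HG, beside 62.3 CPM for sh-JAML and 73.9 for sh-NC. Ephx1, an epoxide hydrolase, had 312 CPM in sh-JAML/HG and 151 CPM in sh-NC/HG, and the imprinted gene Peg3 had 408 CPM in sh-JAML/HG and 203 CPM in sh-NC/HG.

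In Mob1a, a Hippo pathway cofactor, and Gatad2b, a NuRD subunit, sh-JAML/HG stood alone at the low end. Mob1a had 40.4 CPM in sh-JAML/HG and 147 CPM in sh-NC/HG, beside 175 CPM for sh-JAML and 178 for sh-NC. Gatad2b had 42.8 CPM in sh-JAML/HG and 156 CPM in sh-NC/HG, beside 150.2 CPM for sh-JAML and 125 for sh-NC. Inmt, an N-methyltransferase, shared that pattern, with 373 CPM in sh-JAML/HG and 1042 CPM in sh-NC/HG, beside 909 CPM for sh-JAML and 682 for sh-NC. Enpep, the aminopeptidase that cleaves angiotensin II, had 61.9 CPM in sh-JAML/HG and 199 CPM in sh-NC/HG, beside 82.3 CPM for sh-JAML and 84.8 for sh-NC, with sh-NC/HG as the high library. Apol9b, an interferon-responsive apolipoprotein L of the mouse, had 54.4 CPM in sh-JAML/HG and 244 CPM in sh-NC/HG, beside 109.7 CPM for sh-JAML and 106 for sh-NC.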
